A study of Mus musculus with 22 samples.

Results

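The genes described here encode enzymes of serine synthesis and one-carbon metabolism with a pair of stress-linked partners, and they were followed in mouse muscle stem cells before and after muscle injury. The 10 genes were chosen by name (Phgdh, Psat1, Psph, Shmt1, Shmt2, Mthfd2, Mthfd1l, Aldh1l2, Asns and Slc7a11), out of 43430 genes in the deposited tables, and all 10 passed the filter on low counts that left 15084 genes for testing. RNA came from zsgreen-positive muscle stem cells of the hindlimbs of Pax7-zsgreen mice, in which cells with active Pax7, a transcription factor gene of muscle stem cells, carry a green fluorescent protein. All 6 groups share this genotype and came from mice perfused with a mild paraformaldehyde solution before the cells were taken. The groups were uninjured muscle, muscle 1 day after injection of cardiotoxin (a venom component that kills myofibers, after which the muscle regenerates) and muscle 3 days after it, each at ZT16 and at ZT4. ZT counts hours from lights on, so ZT16 falls in the dark phase and ZT4 in the light phase of a standard cycle. There were 4 libraries per time at day 1 and at day 3, and 3 per time in uninjured muscle. For injured muscle the labels tie ZT16 and ZT4 to the injury. Uninjured muscle had no injury, so its ZT cannot be an hour of injury. The labels do not state the hour at which cells were collected, the age of the mice or whether replicates were separate mice. So p-values measure the spread between these libraries, which may be technical.

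Serine is made from a glycolytic intermediate in 3 steps, catalysed in order by PHGDH, PSAT1 and PSPH. SHMT1 in the cytosol and SHMT2 in mitochondria then split serine into glycine and a carbon unit held on folate. In mitochondria MTHFD2 oxidises that unit and MTHFD1L releases it as formate, which the cytosol uses for purines and thymidylate, while ALDH1L2 burns it to carbon dioxide and yields NADPH. ASNS makes asparagine, and SLC7A11 is the light chain of the transporter that imports cystine for glutathione. Muscle stem cells lie quiescent in intact muscle, enter the cell cycle within days of injury and need nucleotides to divide. Many of these genes are known targets of ATF4, the transcription factor of the amino acid and integrated stress responses.

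Library totals ran between 5965957 and 9751536 estimated counts, and 15819 to 23145 genes were detected per library. Uninjured ZT4 replicate 3 had both the lowest total and the fewest genes detected. Levels are given in CPM, counts scaled to library size, which compare libraries for 1 gene, and in TPM, which also correct for transcript length and so compare genes. Markers of muscle stem cells, 11 genes, were present in each library, with summed levels of 4569 to 5911 CPM in uninjured, 3564 to 4345 CPM in day 1 and 3029 to 3530 CPM in day 3 libraries. By the test given below, 8 of the 11 were called lower than in uninjured cells at each day, and 1 higher at day 1 and 2 at day 3. Over all genes tested 40.6% were called lower at day 1 and 39.1% at day 3. The median log2 change of the 11 was −1.07 at day 1 and −2.78 at day 3. Pax7 fell by 2.47 on the log2 scale at day 1 and by 3.83 at day 3, both relative to uninjured cells, while Myod1, a regulator of activated myogenic cells, rose by 2.41 and by 1.69. Macrophage and monocyte markers moved with injury too. Their 13 genes summed to 17.7 to 95.7 CPM in uninjured, 1364 to 4456 CPM in day 1 and 273 to 982 CPM in day 3 libraries. Uninjured ZT16 replicates 1 and 3 stood apart from the other uninjured libraries, with Atf3 (an early stress-response factor) at 385 and 344 CPM, against 1.43 CPM in uninjured ZT16 replicate 2 and 0.565 to 1.76 CPM in the uninjured ZT4 libraries.

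All 10 genes rose after injury. At day 1, 10 of 10 passed the test (edgeR quasi-likelihood, Benjamini-Hochberg adjusted p under 0.05 over all genes tested) as higher than in uninjured cells, where 34.6% of all genes tested were called higher, 40.6% lower and 75.2% in either direction. At day 3, 10 of 10 again passed as higher, against 37.9% of all genes called higher, 39.1% lower and 76.9% either way. The median log2 fold change of the 10 was 2.04 at day 1, against −0.13 over all genes tested, and 2.25 at day 3, against −0.03 over all genes. The largest rises were those of Asns and Mthfd2, and the smallest were those of Aldh1l2 at day 1 and Shmt1 at day 3. In RNA from pooled cells, fewer cells of a type and less RNA per cell cannot be told apart, and CPM are shares of a library, not amounts per cell.

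**Figure D1:**
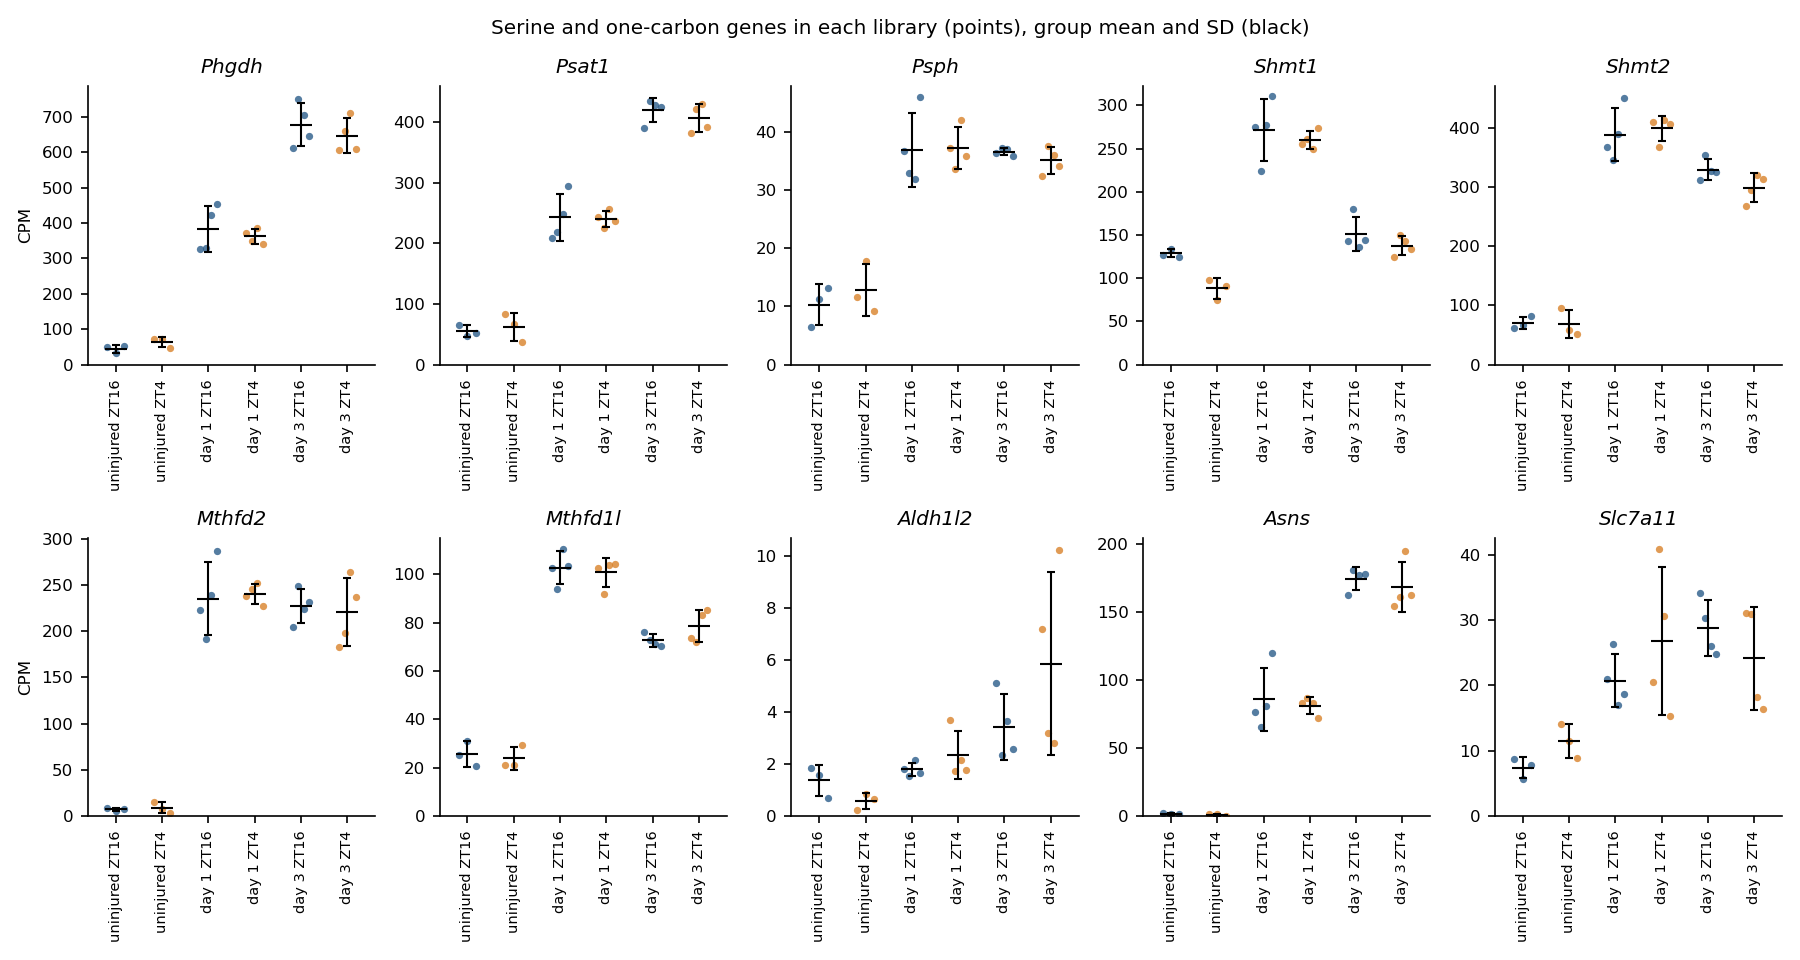
CPM of each of the 10 genes (linear axes from 0) in each library, by state and time; points are libraries, the long black bar is the group mean and the short bars are the SD (n = 3 per uninjured group and 4 per injured group). Asns and Mthfd2 lie near 0 in the uninjured groups, Phgdh, Psat1 and Asns are highest at day 3, and Shmt1 is highest at day 1.

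The serine-making enzymes rose together after injury. Phgdh (chromosome 3, 98313170 to 98339990 on the minus strand of GRCm38), which encodes the first enzyme of the route, had a lowest, median and highest level of 32.4, 50.7 and 72.4 CPM in the 6 uninjured libraries, 326, 361 and 454 CPM in the 8 day 1 libraries, and 605, 654 and 751 CPM in the 8 day 3 libraries. The 3 states did not overlap, and each later state lay above the one before it. Phgdh was 6.96-fold higher at day 1 than in uninjured cells (log2 2.80 ± 0.12 SE, edgeR adjusted p = 4.17e-16) and 12.4-fold higher at day 3 than in uninjured cells (log2 3.63 ± 0.12, edgeR adjusted p = 5.11e-18). Between the injured states it was 1.78-fold higher at day 3 than at day 1 (log2 0.83 ± 0.10, edgeR adjusted p = 1.18e-07). Mouse DNA holds many processed copies of Phgdh, and 61.3% of the 50-base words in its transcripts also occur in transcripts of 20 other genes. Of the counts of Phgdh and the 9 such copies in the files, the copies held 2.94 to 4.90% in uninjured, 3.97 to 5.87% in day 1 and 3.75 to 5.31% in day 3 libraries. How the counting split reads between them was not tested, but the calls for Phgdh were the same when the copies were added to it, an alternative chosen after seeing the data. The rest of the 20 genes are not in the files, so neither this share nor the sum can bound reads from them.

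Psat1 (chromosome 19, 15904678 to 15947337, minus strand), which encodes the aminotransferase of the next step, had 37.0, 58.8 and 83.6 CPM in uninjured, 209, 240 and 295 CPM in day 1 and 382, 423 and 435 CPM in day 3 libraries (lowest, median and highest). Its states were apart in the same order as those of Phgdh. Psat1 was 4.13-fold higher at day 1 (log2 2.04 ± 0.13) and 7.04-fold higher at day 3 (log2 2.82 ± 0.13) than in uninjured cells, and 1.71-fold higher at day 3 than at day 1 (log2 0.77 ± 0.11, edgeR adjusted p = 2.86e-06). Psph (chromosome 5, 129765558 to 129787449, minus strand), which encodes the phosphatase that releases serine, had 6.45, 11.5 and 17.8 CPM in uninjured, 32.0, 36.3 and 46.0 CPM in day 1 and 32.5, 36.2 and 37.7 CPM in day 3 libraries. Both injured states lay above the uninjured one, and they overlapped each other. The rise of Psph was 3.20-fold at day 1 (log2 1.68 ± 0.15) and 3.10-fold at day 3 (log2 1.63 ± 0.15). Its day 3 level did not pass the test against day 1 (log2 −0.05 ± 0.13, edgeR adjusted p = 0.778).

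The enzymes that split serine changed by different amounts. Shmt1 (chromosome 11, 60788104 to 60811718, minus strand), the cytosolic enzyme, had 74.9, 112 and 134 CPM in uninjured, 224, 268 and 311 CPM in day 1 and 125, 143 and 180 CPM in day 3 libraries. Day 1 lay above both other states, and day 3 overlapped uninjured. Shmt1 was 2.495-fold higher at day 1 than in uninjured cells (log2 1.32 ± 0.08) and 1.35-fold higher at day 3 than in uninjured cells (log2 0.44 ± 0.08, edgeR adjusted p = 3.31e-05), and it was lower at day 3 than at day 1 (log2 −0.88 ± 0.07, edgeR adjusted p = 3.78e-10). Shmt2 (chromosome 10, 127517123 to 127522444, minus strand), the mitochondrial enzyme, had 52.2, 64.2 and 95.4 CPM in uninjured, 346, 399 and 451 CPM in day 1 and 268, 318 and 355 CPM in day 3 libraries. Every injured library exceeded every uninjured one, and the ranges of the injured states overlapped. Shmt2 was 5.67-fold higher at day 1 (log2 2.504 ± 0.11) and 4.52-fold higher at day 3 (log2 2.18 ± 0.11) than in uninjured cells, with a smaller fall between day 1 and day 3 than Shmt1 (log2 −0.33 ± 0.09, edgeR adjusted p = 0.00441).

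The mitochondrial folate enzymes included the gene with the next to largest rise of the 10. Mthfd2 (chromosome 6, 83305691 to 83325908, minus strand), the dehydrogenase and cyclohydrolase that oxidises the folate-bound carbon, had 3.53, 7.64 and 15.7 CPM in uninjured, 192, 239 and 287 CPM in day 1 and 183, 228 and 264 CPM in day 3 libraries. Injured and uninjured libraries were far apart, and the injured states covered nearly the same range. The rise was 29.1-fold at day 1 (log2 4.86 ± 0.21) and 27.3-fold at day 3 (log2 4.77 ± 0.21) relative to uninjured cells, and day 3 did not pass the test against day 1 (log2 −0.09 ± 0.15, edgeR adjusted p = 0.641).

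Mthfd1l (chromosome 10, 3973118 to 4167081, plus strand), the mitochondrial ligase that gives formate, had 20.7, 23.1 and 31.1 CPM in uninjured, 92.0, 103 and 111 CPM in day 1 and 70.3, 73.2 and 85.3 CPM in day 3 libraries. The 3 states were apart, with day 1 highest. It was 4.12-fold higher at day 1 (log2 2.04 ± 0.10) and 3.06-fold higher at day 3 (log2 1.61 ± 0.10) than in uninjured cells, and it was lower at day 3 than at day 1 (log2 −0.43 ± 0.08, edgeR adjusted p = 8.69e-05). Aldh1l2 (chromosome 10, 83487450 to 83534140, minus strand) was the least abundant, with 42 counts in all in the 6 uninjured libraries, 118 in the 8 day 1 libraries and 276 in the 8 day 3 libraries. Its levels were 0.226, 0.788 and 1.86 CPM in uninjured, 1.54, 1.81 and 3.68 CPM in day 1 and 2.36, 3.44 and 10.2 CPM in day 3 libraries. In CPM day 3 lay above uninjured, while day 1 overlapped both other states. By TPM day 3 (0.62 to 3.07) overlapped uninjured (0.06 to 1.11) too. Aldh1l2 was 2.29-fold higher at day 1 (log2 1.20 ± 0.40, edgeR adjusted p = 0.00958) and 4.99-fold higher at day 3 (log2 2.32 ± 0.40, edgeR adjusted p = 1.09e-05) than in uninjured cells, and higher at day 3 than at day 1 (log2 1.12 ± 0.33, edgeR adjusted p = 0.00553). Its day 1 call was lost with limma voom (log2 1.31, adjusted p = 0.0566) and its day 3 call against day 1 was lost with offsets for transcript length (log2 0.90, edgeR adjusted p = 0.102).

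Asns (chromosome 6, 7675169 to 7693254, minus strand), which encodes asparagine synthetase, had the largest rise of the 10. It had 0, 1.31 and 2.01 CPM in uninjured, 65.8, 82.0 and 120 CPM in day 1 and 155, 170 and 195 CPM in day 3 libraries (lowest, median and highest). The 3 states were far apart, and the uninjured level rested on 55 counts in all, with no count in uninjured ZT4 replicate 3. Asns was 66.7-fold higher at day 1 (log2 6.06 ± 0.22, edgeR adjusted p = 2.56e-16) and 137-fold higher at day 3 (log2 7.10 ± 0.22, edgeR adjusted p = 1.03e-17) than in uninjured cells. By log2 fold change it ranked 238 of 15084 genes at day 1 and 82 at day 3, and it was 2.05-fold higher at day 3 than at day 1 (log2 1.04 ± 0.13).

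Slc7a11 (chromosome 3, 49892526 to 50443614, minus strand), which encodes the cystine and glutamate exchanger xCT, rose less. It had 5.71, 8.78 and 14.1 CPM in uninjured, 15.3, 20.7 and 40.9 CPM in day 1 and 16.4, 28.2 and 34.2 CPM in day 3 libraries. In CPM all injured libraries exceeded the uninjured ones, some narrowly, and the injured states overlapped. By TPM the uninjured range (0.92 to 5.41) overlapped those of day 1 (2.58 to 8.53) and day 3 (2.6 to 8.46). The rise was 2.54-fold at day 1 (log2 1.35 ± 0.21, edgeR adjusted p = 3.67e-06) and 2.85-fold at day 3 (log2 1.51 ± 0.21, edgeR adjusted p = 6.01e-07), with no call between day 3 and day 1 (log2 0.16 ± 0.18, edgeR adjusted p = 0.461).

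Promoter windows of 250 bases before to 50 bases after the start, from RefSeq on GRCm38.p6, were found for 9 of the 10 genes (10 windows), all but Aldh1l2. They were searched on both strands for the core of the C/EBP-ATF response element bound by ATF4, TGATGNAA, and for the E-box CACGTG bound by CLOCK-BMAL1 and Myc. The C/EBP-ATF core occurred in windows of 2 of the 9 genes, Asns and Slc7a11, and in 3.97% of 32851 promoters of the table. CACGTG occurred in 0 of the 9 genes and in 7.15% of the promoters. Both windows that hold the core are shown because they carry the element whose factor is named above, with the matches in capitals. Asns (chr6:7693160-7693459, minus strand) has its match from base −23, and Slc7a11 (chr3:50443564-50443863, minus strand) has matches from base −66 and, on the other strand, from base −47, counted from the start. These are matches of letters and not measured binding sites.
Asns promoter: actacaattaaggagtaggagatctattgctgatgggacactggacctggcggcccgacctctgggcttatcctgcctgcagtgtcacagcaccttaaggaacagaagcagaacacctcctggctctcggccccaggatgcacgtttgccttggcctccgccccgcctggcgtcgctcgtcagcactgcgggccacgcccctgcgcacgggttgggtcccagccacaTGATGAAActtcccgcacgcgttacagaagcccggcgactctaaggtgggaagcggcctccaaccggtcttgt
Slc7a11 promoter: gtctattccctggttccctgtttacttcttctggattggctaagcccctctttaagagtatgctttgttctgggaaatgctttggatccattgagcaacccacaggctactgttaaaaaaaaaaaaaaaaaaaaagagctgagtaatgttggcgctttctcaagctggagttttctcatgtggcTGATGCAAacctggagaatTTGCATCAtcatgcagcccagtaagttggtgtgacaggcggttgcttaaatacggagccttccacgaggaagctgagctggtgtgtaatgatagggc

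Asns, with 1 match, was 137-fold higher at day 3 than in uninjured cells, and Slc7a11, with 2 matches, was 2.85-fold higher. The genes searched that had no match were between 1.35-fold (Shmt1) and 27.3-fold (Mthfd2) higher. Whether matches go with the size of the rise was not tested.

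Between day 3 and day 1 the genes parted. Of the 10, 4 passed as higher at day 3 (Phgdh, Psat1, Aldh1l2 and Asns), 3 passed as lower (Shmt1, Shmt2 and Mthfd1l) and 3 did not pass (Psph, Mthfd2 and Slc7a11). Over all genes tested 26.7% were called higher and 28.7% lower at day 3 than at day 1, so 7 of 10 called stands against 55.3% of all genes. The median log2 change of the 10 between these states was 0.06, against −0.02 over all genes. The genes that rose further make serine or asparagine or, in the case of Aldh1l2, oxidise the folate-bound carbon, and the genes that fell load folate with carbon from serine or release it as formate. Function does not sort the genes fully. Psph also makes serine and Mthfd2 also oxidises the folate-bound carbon, and neither passed (log2 −0.05 and −0.09).

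**Figure D2:**
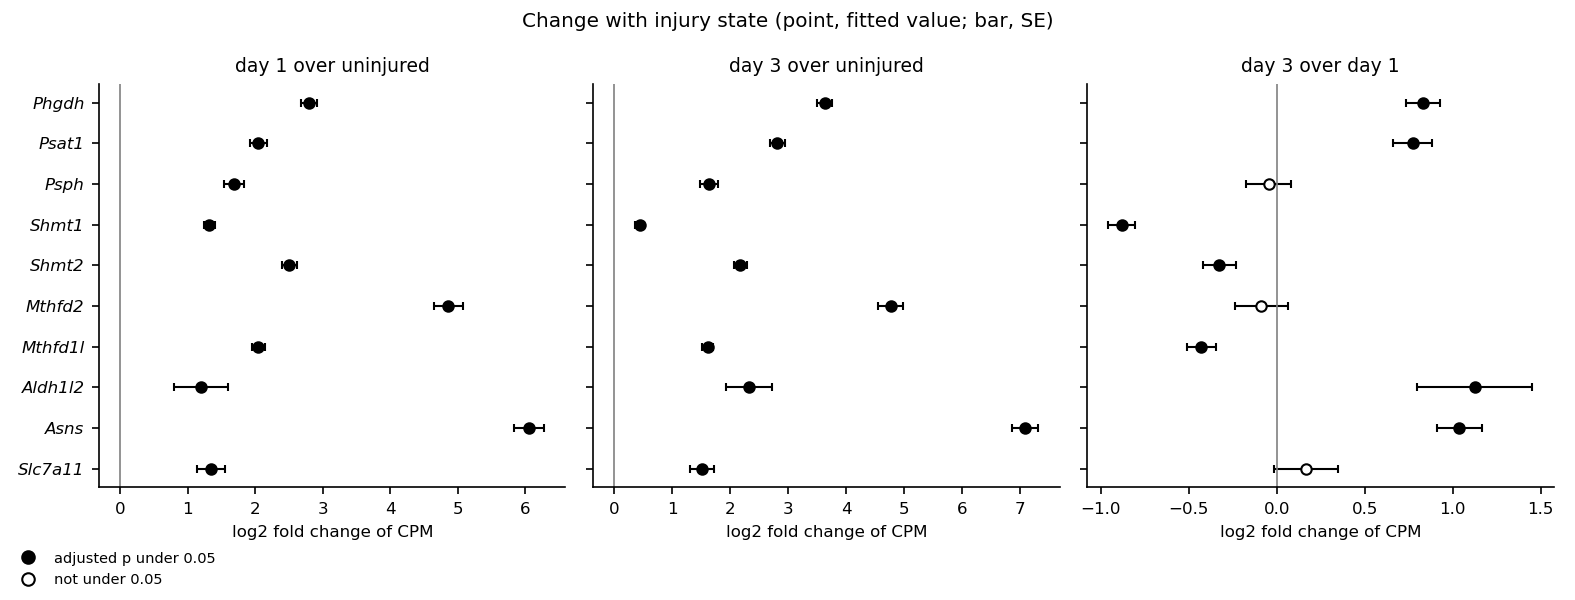
Log2 fold change of CPM with its SE (bars) for the 10 genes at day 1 over uninjured, day 3 over uninjured and day 3 over day 1; filled points passed an edgeR adjusted p of 0.05 and open points did not. All 20 points against uninjured lie right of 0, while the right panel has 4 filled points right of 0, 3 filled points left of 0 and 3 open points.

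The marker sums of other cells changed beside these results. Macrophage and monocyte markers were called higher for 13 of 13 genes at day 1 and at day 3 against uninjured, and 10 of 13 were called lower at day 3 than at day 1. Neutrophil markers summed to 0 to 3.22 CPM in uninjured, 18.4 to 246 CPM in day 1 and 5.92 to 14.4 CPM in day 3 libraries, and myofiber markers to 438 to 1101, 122 to 773 and 1220 to 2782 CPM in the same order of states. Endothelial markers summed to 98.6 to 191 CPM in uninjured, 33.5 to 76.6 CPM in day 1 and 12.2 to 24.6 CPM in day 3 libraries, and smooth muscle and mural markers to 778 to 1582, 409 to 482 and 293 to 486 CPM. Gene by gene the endothelial list was mixed at day 1, with 1 of 7 called lower and 1 higher (median log2 0.30). At day 3, 4 of the 7 were called lower and 0 higher. Fibro-adipogenic markers summed to 2784 to 3804 CPM in uninjured, 482 to 819 CPM in day 1 and 1481 to 3324 CPM in day 3 libraries. Of 8 such genes tested, 5 were called lower and 1 higher at day 1, and 3 lower and 4 higher at day 3. Over all genes tested, 40.6% were called lower and 34.6% higher at day 1, and 39.1% and 37.9% at day 3. Between day 3 and day 1, 28.7% were called lower. No macrophage marker was at 0 in every library of a state, Cx3cr1 was at 0 in the uninjured ZT4 libraries, and the neutrophil marker Ly6g was at 0 in the uninjured and day 1 libraries. The part of other cells in the changes was not tested. Within day 1, ZT4 replicate 3 had the highest macrophage sum (4456 CPM), with Phgdh at 387, Mthfd2 at 252 and Asns at 82.7 CPM. The lowest sums were those of ZT16 replicate 4 (1364 CPM), replicate 3 (1469 CPM) and replicate 2 (1902 CPM). There Phgdh stood at 454, 423 and 330 CPM, Mthfd2 at 287, 239 and 192 CPM, and Asns at 120, 81.2 and 65.8 CPM, in the same order of libraries. The libraries named are the extremes of the macrophage sums within day 1, and they differ in time. Whether macrophage sums go with these genes, within day 1 or between states, was not tested.

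The order of the 10 by TPM also changed with state. In uninjured cells Shmt1, with all its transcripts counted, led with a mean of 90.4 TPM, ahead of Shmt2 at 45.4, Phgdh at 43.5 and Psat1 at 41.2 TPM, and the ranges of these neighbours overlapped (n = 6). Below them a gap separated Psat1 from Psph at 13.1 TPM, followed by Mthfd1l at 9.83, Mthfd2 at 5.98, Slc7a11 at 2.60, Asns at 1.18 and Aldh1l2 at 0.407 TPM, each overlapping the next. At day 1 Phgdh was first at 277 TPM, with Shmt2 at 235 and Shmt1 at 218 TPM overlapping in turn, and Mthfd2 at 161 TPM lay apart below Shmt1 (n = 8). Psat1 followed at 144 TPM, overlapping Mthfd2, and Asns at 61.4 TPM, apart from its neighbours, then Mthfd1l at 37.0 and Psph at 36.7 TPM, whose ranges overlapped, and Slc7a11 and Aldh1l2 came last at 4.47 and 0.863 TPM. At day 3 Phgdh at 494 TPM stood apart from Psat1 at 249 TPM, and Psat1 stood apart from Shmt2 at 188 TPM (n = 8). Mthfd2 at 151, Asns at 127 and Shmt1 at 116 TPM came next with overlapping neighbours, ahead of Psph at 34.7, Mthfd1l at 27.9, Slc7a11 at 4.72 and Aldh1l2 at 1.55 TPM. Shmt1 thus moved to the sixth place at day 3, and Asns rose to the fifth. The summed level of the 10 was 253.5 ± 49.7 TPM in uninjured (SD, n = 6), 1174 ± 81.8 TPM in day 1 and 1395 ± 57.5 TPM in day 3 libraries (SD, n = 8 each).

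Ratios of mitochondrial enzymes to their cytosolic or sister enzymes were compared within each library, as the log2 ratio of TPM with 0.1 added, in 12 tests over 4 pairs. Shmt2 over Shmt1 lay between −1.45 and −0.45 in the 6 uninjured libraries, averaged 0.11 ± 0.10 in day 1 and averaged 0.70 ± 0.15 in day 3 libraries (SD, n = 8 each). In linear terms the geometric mean ratio was 0.500, 1.08 and 1.63 in these states, with all transcripts of a gene counted. Much of the Shmt1 TPM came from transcripts not annotated as coding. The coding Shmt1-201 alone averaged 41.2 TPM in uninjured, 76.7 TPM in day 1 and 43.8 TPM in day 3 libraries, beside 45.4, 235 and 188 TPM of Shmt2. The ratio with the coding transcript alone was not tested. The ratios of the 3 states did not overlap, and the difference was 1.11 at day 1 and 1.70 at day 3 against uninjured (exact permutation test, two-sided, p = 0.000666, the smallest this design allows, adjusted p = 0.000999 for both), and 0.59 at day 3 against day 1 (exact permutation p = 0.000155, the smallest here, adjusted p = 0.000466).

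Mthfd2 over Mthfd2l, a mitochondrial sister enzyme found in adult tissues, averaged −0.58 ± 0.72 in uninjured, 3.97 ± 0.21 in day 1 and 3.34 ± 0.14 in day 3 libraries. The ratio rose by 4.56 at day 1 and by 3.92 at day 3 against uninjured (exact permutation, adjusted p = 0.000999 for both), and was lower at day 3 than at day 1 (difference −0.64, exact permutation, adjusted p = 0.000466). Mthfd2l itself rose by less, with log2 fold changes of 0.44 ± 0.15 at day 1 and 0.97 ± 0.15 at day 3 against uninjured. Mthfd1l over Mthfd1, the cytosolic enzyme with 3 activities, averaged −1.89 ± 0.35 in uninjured, −1.89 ± 0.10 in day 1 and −1.61 ± 0.08 in day 3 libraries, so the cytosolic transcript led throughout. That ratio did not pass at day 1 against uninjured (difference −0.00, exact permutation, adjusted p = 0.992) or at day 3 against uninjured (difference 0.28, exact permutation, adjusted p = 0.0631), and it passed at day 3 against day 1 (difference 0.28, exact permutation, adjusted p = 0.000466). Mthfd1 rose by 2.03 ± 0.09 at day 1 and by 1.32 ± 0.08 at day 3 on the log2 scale against uninjured, close in size to Mthfd1l.

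Aldh1l2 over Aldh1l1, the cytosolic enzyme, averaged −2.17 ± 1.92 in uninjured, −1.78 ± 1.06 in day 1 and 1.26 ± 1.17 in day 3 libraries. Both transcripts were rare, and their ratio varied widely among uninjured libraries. It did not pass at day 1 against uninjured (difference 0.38, exact permutation, adjusted p = 0.711) and passed at day 3 against uninjured (difference 3.42, exact permutation, adjusted p = 0.00533) and against day 1 (difference 3.04, exact permutation, adjusted p = 0.000466). Aldh1l1 fell at day 3 to 0.849 ± 0.327 CPM, against 5.23 ± 2.57 CPM in uninjured cells (SD, n = 8 and 6, log2 −2.55 ± 0.46). In the time groups taken apart, each ratio that passed kept its sign, but 4 against 3 libraries cannot give an exact p below 0.0571.

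**Figure D3:**
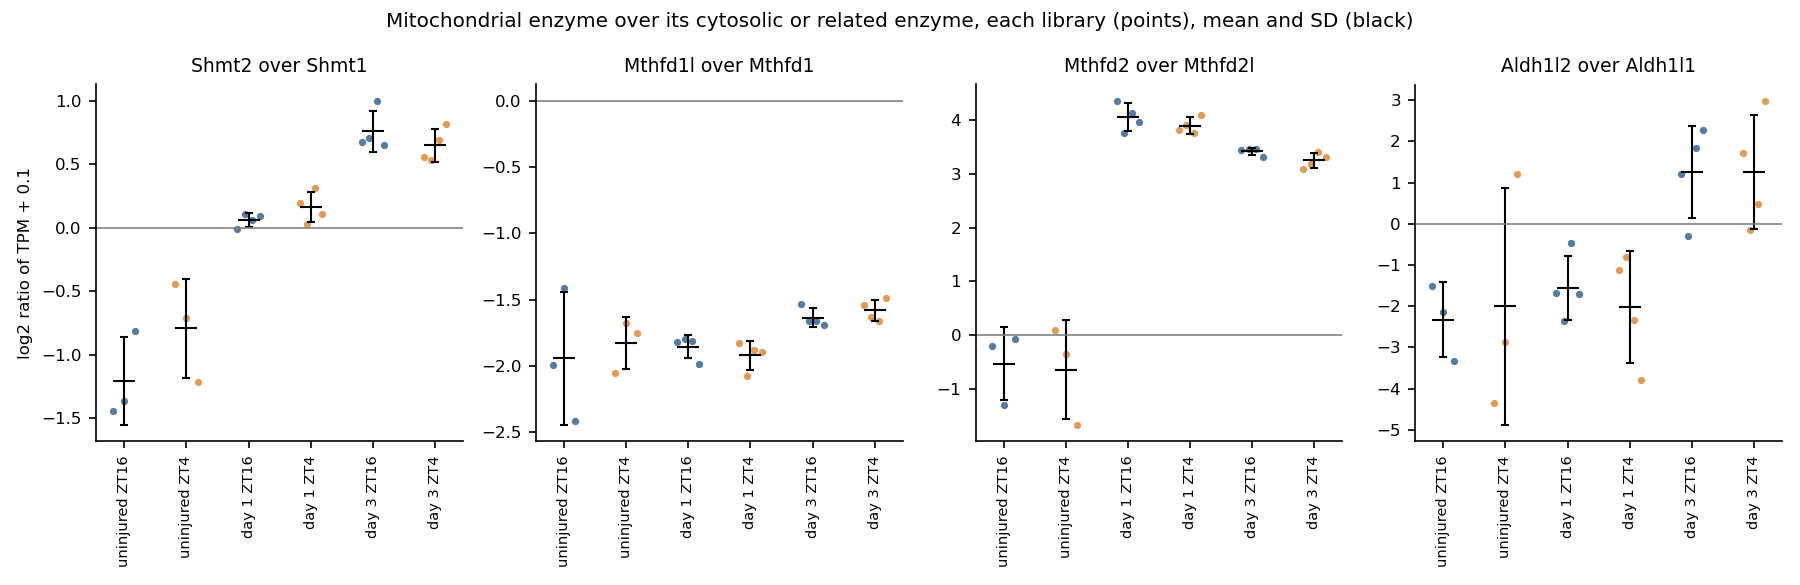
Log2 ratio of TPM (with 0.1 added) of Shmt2 over Shmt1, Mthfd1l over Mthfd1, Mthfd2 over Mthfd2l and Aldh1l2 over Aldh1l1 in each library (points), with mean and SD (black), by state and time. Shmt2 over Shmt1 is below 0 in all uninjured libraries and above 0 in all day 3 libraries (mean 0.70), and Mthfd2 over Mthfd2l jumps to a mean of 3.97 at day 1.

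Genes that use or feed the same carbon did not all move with the 10. Of 19 other folate and glycine cleavage genes, 13 rose, 5 fell and 1 did not pass at day 1 against uninjured, and 12 rose and 7 fell at day 3. At day 1, 68.4% of the list was higher and 26.3% lower, against 34.6% and 40.6% of all genes tested. At day 3 the shares were 63.2% and 36.8%, against 37.9% and 39.1% of all genes. Tyms, which makes thymidylate, rose by 2.35 ± 0.13 at day 1 and by 2.31 ± 0.13 at day 3 on the log2 scale. Gcsh, the carrier protein of the glycine cleavage system, rose by 1.87 ± 0.08 at day 1 and by 1.64 ± 0.08 at day 3. Between day 3 and day 1, 10 of the 19 fell (52.6%, against 28.7% of all genes) and 3 rose (15.8%, against 26.7%). Those that fell included Slc19a1, the reduced folate carrier (log2 −0.85 ± 0.08), and Fpgs, which retains folate in cells (log2 −0.73 ± 0.08).

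Purine synthesis, a main use of formate, rose throughout, with 12 of 12 genes called higher at day 1 and 12 of 12 at day 3 against uninjured. Ppat, its committed step, rose by 2.33 ± 0.11 and Prps1, which supplies activated ribose, by 2.08 ± 0.09 at day 1. At day 3 Gart, a consumer of formyl folate, was 1.74 ± 0.10 above uninjured. Against day 1, 8 of the 12 were lower at day 3 and 0 were higher, including Adsl (log2 −0.55 ± 0.07) and Paics (log2 −0.37 ± 0.05). The share called higher over all genes is the 34.6% at day 1 and 37.9% at day 3 given above. Between day 3 and day 1, 28.7% of all genes were called lower.

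Of 12 genes tested of the methionine cycle and transsulfuration, 6 were higher (50.0%, against 34.6% of all genes) and 4 lower (33.3%, against 40.6%) at day 1, and 6 and 4 at day 3 (against 37.9% and 39.1%). Mtap, which salvages methionine, rose by 2.99 ± 0.10 at day 1, and Cbs, which directs homocysteine to cysteine, fell by 6.84 at day 3 (log2 −6.84 ± 0.40), both against uninjured. Of 10 genes of glutathione synthesis and use, a list that includes Slc7a11, 8 rose at day 1 and 9 at day 3, and 0 fell. Gsr, which recycles glutathione, rose by 2.83 ± 0.09 and Txnrd1, a thioredoxin reductase, by 2.15 ± 0.08 at day 1. Gclm, a subunit of the enzyme that starts glutathione synthesis, was lower at day 3 than at day 1 (log2 −1.40 ± 0.08).

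Of 15 genes that use serine, asparagine or glutamine, 4 were higher (26.7%) and 7 lower (46.7%) at day 1, and 5 higher (33.3%) and 7 lower (46.7%) at day 3, shares near those over all genes (34.6% and 40.6% at day 1, 37.9% and 39.1% at day 3). Got1, a cytosolic aspartate aminotransferase, rose by 2.40 ± 0.10 at day 1 and by 2.89 ± 0.10 at day 3, whereas Glul, glutamine synthetase, fell at day 3 (log2 −2.41 ± 0.11). Cytosolic aminoacyl-tRNA synthetases rose in 20 of 20 cases at both days. Aars, the alanine enzyme, rose by 2.07 ± 0.07 at day 1 and by 2.08 ± 0.07 at day 3. Of 11 amino acid transporters 6 rose and 3 fell at each day. Slc1a5, which carries glutamine and other neutral amino acids, rose by 1.85 ± 0.09 at day 1, and Slc6a9, a glycine transporter, fell at day 3 (log2 −3.76 ± 0.26).

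The list of ATF4, its regulators and its responders moved both ways, and its values rested on the uninjured libraries used. Of 21 genes 9 were higher (42.9%, against 34.6% of all genes), 6 lower (28.6%, against 40.6%) and 6 not called at day 1, with a median log2 change of 0.07. At day 3, 6 were higher (28.6%, against 37.9% of all genes), 9 lower (42.9%, against 39.1%) and 6 not called, with a median of −0.25. Without uninjured ZT16 replicates 1 and 3, which leaves 1 uninjured ZT16 library, the median was 0.36 at day 1 and −0.06 at day 3. This alternative was applied to the list after seeing the data. Atf4 itself stood at 147, 176 and 204 CPM in day 1 libraries (lowest, median and highest), against 65.6, 108 and 181.5 CPM in uninjured libraries, ranges that overlapped (log2 0.60 ± 0.17, edgeR adjusted p = 0.00445). At day 3 it had 75.5, 92.6 and 136 CPM and did not pass against uninjured (log2 −0.25 ± 0.17, edgeR adjusted p = 0.199). Without the same pair of libraries the Atf4 change was log2 1.27 at day 1 and 0.36 at day 3, so its direction at day 3 changed. In that fit the uninjured mean gives 1 ZT16 library the same weight as all ZT4 libraries together. Atf4 in that library was below the ZT4 libraries (log2 −0.58), so the change of direction leans on it.

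Calls of some other stress genes also depended on this pair, and without it 1 library stands for uninjured ZT16. Ddit3, which encodes the stress factor CHOP, fell at day 1 (log2 −0.88 ± 0.19) and at day 3 (log2 −1.16 ± 0.19), and without the pair its day 1 value did not pass (log2 −0.28 ± 0.20, edgeR adjusted p = 0.231) and its day 3 value did (log2 −0.62 ± 0.20, edgeR adjusted p = 0.00864). Trib3 passed at day 1 (log2 1.82 ± 0.48, edgeR adjusted p = 0.0016) and not at day 3 (log2 1.01 ± 0.49, edgeR adjusted p = 0.0614), where it did pass without the pair (log2 1.51 ± 0.64, edgeR adjusted p = 0.0411). Chac1 passed at neither day (log2 0.14 ± 0.44 and −0.57 ± 0.46), with or without the pair. Myc, a factor that drives genes of serine synthesis in other cells, rose at day 1 (log2 0.75 ± 0.18) and fell at day 3 (log2 −0.85 ± 0.18) against uninjured, and without the pair its day 3 value did not pass (log2 −0.24 ± 0.14, edgeR adjusted p = 0.131). All 10 serine and one-carbon genes were still called higher at both days without these libraries, the weakest being Aldh1l2 at day 1 (edgeR adjusted p = 0.0349). Transcript levels do not measure ATF4 protein, whose translation is regulated.

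**Figure D4:**
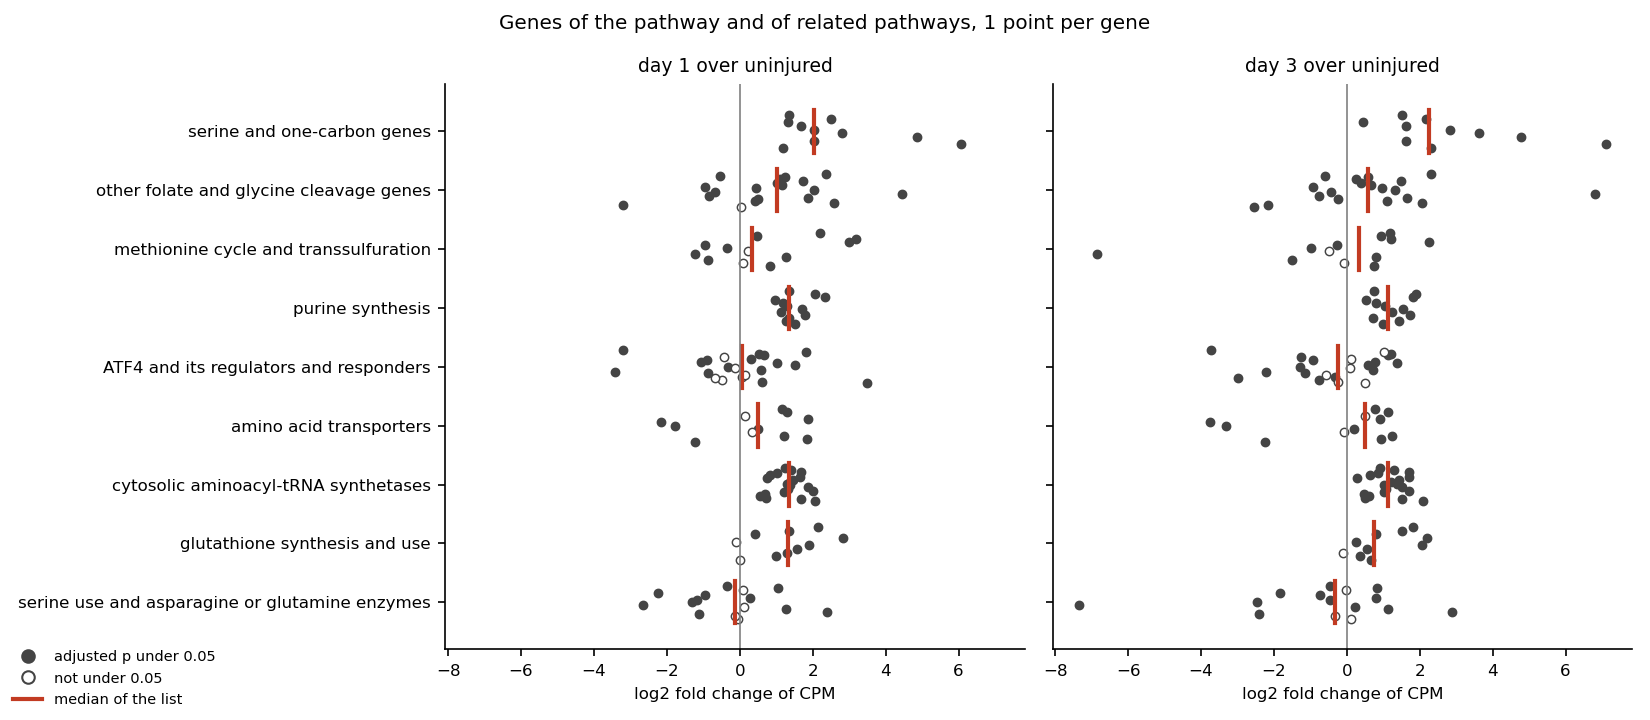
Log2 fold change of CPM at day 1 and day 3 over uninjured for the 10 genes and 8 lists of related genes (1 point per gene; filled, edgeR adjusted p under 0.05; red bar, list median). All points of the serine and one-carbon genes, purine synthesis and aminoacyl-tRNA synthetases lie right of 0, and those of the ATF4 list lie on both sides; the point of Gldc, far right in the folate list, is a fitted value for a gene with 0 counts in uninjured libraries and at least 4.99-fold higher at day 1 and 26.5-fold higher at day 3 with uninjured set to 3 counts in all as the floor.

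The times were compared within each state. In uninjured cells 2 of the 10 genes passed, against 17.7% of all genes (8.54% higher and 9.13% lower). Shmt1 had 127, 134 and 125 CPM in the ZT16 libraries, against 98.2, 74.9 and 91.5 CPM in the ZT4 libraries, and was 1.46-fold higher at ZT16 (log2 0.55 ± 0.12, edgeR adjusted p = 0.00286). Its times did not overlap. Phgdh had 48.3, 32.4 and 53.1 CPM in the ZT16 libraries, against 72.4, 72.0 and 47.6 CPM in the ZT4 libraries, and was lower at ZT16 (log2 −0.52 ± 0.17, edgeR adjusted p = 0.0303). Its times overlapped, through ZT4 replicate 3. Slc7a11 had 8.74, 5.71 and 7.81 CPM at ZT16, against 14.1, 11.5 and 8.81 CPM at ZT4, which did not overlap but did not pass (log2 −0.64 ± 0.33, edgeR adjusted p = 0.188). The other 7 had log2 differences between −0.39 ± 0.33 (Mthfd2) and 1.25 ± 0.64 (Aldh1l2), none of which passed.

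Both uninjured calls depended on the libraries used. Fitted with the 6 uninjured libraries alone, neither passed (edgeR adjusted p = 0.071 for Shmt1 and 0.206 for Phgdh). Without ZT16 replicates 1 and 3, which leaves 1 ZT16 library assumed to vary like the rest, Shmt1 no longer passed (log2 0.58 ± 0.17, edgeR adjusted p = 0.0611) and Phgdh did, at a larger size (log2 −1.003 ± 0.21, edgeR adjusted p = 0.0114). The call of Phgdh was lost without ZT4 replicate 1 (edgeR adjusted p = 0.0856), ZT4 replicate 2 (0.107) or ZT16 replicate 2 (0.117). Psat1 (log2 −0.45, edgeR adjusted p = 0.0288) and Mthfd2 (log2 −0.75, edgeR adjusted p = 0.0394) were called without ZT4 replicate 3. Genes of the ATF4 list moved with the same contrast, with 9 of 21 higher and 0 lower at ZT16, among them Ddit3 (log2 1.95 ± 0.29) and Cebpb (log2 3.80 ± 0.62), while 7 of 20 aminoacyl-tRNA synthetases were lower and 0 higher. Without ZT16 replicates 1 and 3, 2 of the 21 were higher and 3 of the 20 lower, and Ddit3 did not pass (log2 0.98 ± 0.33, edgeR adjusted p = 0.113). Cebpb was at 320, 340 and 919 CPM in the ZT16 libraries, against 35.0, 43.6 and 34.5 CPM in the ZT4 libraries.

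After injury no time difference passed for any of the 10. At day 1, 0 of 10 passed and 0% of all genes were called by edgeR, with 920 genes at an unadjusted p under 0.05, and DESeq2 called 26 genes and limma voom 46, none of them among the 10. At day 3, 0 of 10 passed and 0% of all genes were called, with 1002 genes at an unadjusted p under 0.05, and DESeq2 and limma voom called 0. Phgdh had 326, 330, 423 and 454 CPM at ZT16, against 372, 349, 387 and 340 CPM at ZT4, at day 1 (log2 0.08 ± 0.14). At day 3 it had 611, 751, 704 and 647 CPM at ZT16, against 605, 661, 711 and 609 CPM at ZT4 (log2 0.07 ± 0.14). The times overlapped at both days. Apart from Aldh1l2 and Slc7a11, the log2 differences lay between −0.04 and 0.08 at day 1 and between −0.11 and 0.14 at day 3, with SE of 0.10 to 0.21. Aldh1l2 had −0.39 ± 0.48 and −0.77 ± 0.45, and Slc7a11 −0.37 ± 0.26 and 0.26 ± 0.26, at day 1 and day 3.

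**Figure D5:**
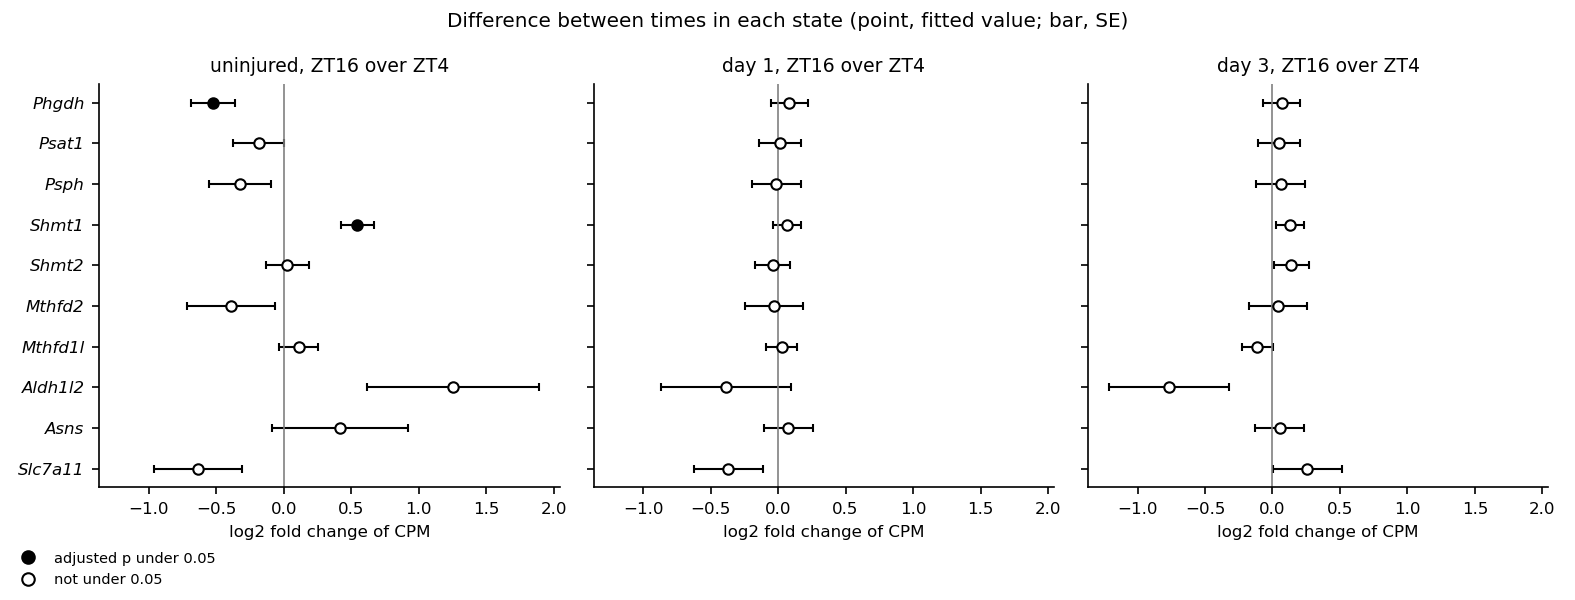
Log2 fold change of CPM at ZT16 over ZT4 with its SE (bars) for the 10 genes in uninjured, day 1 and day 3 cells; filled points passed an edgeR adjusted p of 0.05. Only Phgdh (−0.52) and Shmt1 (0.55) in uninjured cells are filled, and in injured cells most points lie near 0.

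Whether the time difference itself changed with injury was tested for the 10 genes in 20 tests, of which 0 passed, against 7.45% of all genes called at day 1 against uninjured (3.93% higher and 3.52% lower) and 12.8% at day 3 against uninjured (6.80% higher and 5.97% lower). The smallest adjusted p-values among them belonged to 3 genes. They were Phgdh, with a change of 0.61 ± 0.22 at day 1 (edgeR adjusted p = 0.0894) and 0.59 ± 0.22 at day 3 (edgeR adjusted p = 0.0705), Shmt1, with −0.48 ± 0.16 at day 1 (edgeR adjusted p = 0.0684) and −0.41 ± 0.16 at day 3 (edgeR adjusted p = 0.0931), and the rare Aldh1l2, with −2.02 ± 0.78 at day 3 (edgeR adjusted p = 0.0895). So the time differences of Phgdh and Shmt1 in uninjured cells are not shown to differ from those in injured cells. The uninjured ZT cannot be an hour of injury, so these tests may set unlike times against each other. Without uninjured ZT16 replicates 1 and 3 the change of Phgdh was larger (1.08 at day 1 and 1.07 at day 3). That rests on 1 uninjured ZT16 library, replicate 2, which had the lowest uninjured Phgdh level (32.4 CPM) and gives no spread of its own.

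Likeness was taken across the 6 group means of log2 CPM with 0.5 added, each gene centred on its own mean. The 5 genes most like Phgdh among 9839 genes were Me2 (root mean square difference 0.0687), Gm10184 (0.0750), Gm7901 (0.106), Kpna2 (0.124) and Gpd2 (0.144). Me2 encodes mitochondrial malic enzyme and Gpd2 mitochondrial glycerol phosphate dehydrogenase. Gm7901 is a processed copy of Phgdh that shares 933 of its 50-base words, so its counts may include reads of Phgdh. Me2 had means of 19.4, 127 and 229 CPM in uninjured, day 1 and day 3 libraries. The 5 most like Mthfd2 were Cdca5 (0.135), Il18rap (0.144), Mcm10 (0.210), BC030867 (0.219) and Uhrf1 (0.227), with Il18rap at 0.0426, 17.7 and 15.9 CPM in uninjured, day 1 and day 3 libraries. The uninjured level of Il18rap is below the 0.5 CPM added, which shrinks its rise, so its likeness to Mthfd2 depends on that setting. Il18rap encodes a chain of the interleukin-18 receptor, known from immune cells, and macrophage markers also rose with injury, whose part in this likeness was not tested. Cdca5 acts in the cohesion of sister chromosomes, Mcm10 in DNA replication and Uhrf1 in keeping DNA methylation through replication. Among the 10 genes themselves the closest were Psph and Slc7a11 (0.215), and Phgdh was closest to Psat1 (0.379). Likeness over 6 means is a description of these groups.

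The transcripts that carried each gene were steady for some genes and not for others. Phgdh, Shmt2 and Mthfd2 had 1 major transcript each. Psph-201 held 75.3 ± 14.3% of Psph TPM in uninjured (SD, n = 6), 95.4 ± 4.05% in day 1 and 95.0 ± 2.52% in day 3 libraries (SD, n = 8 each). Of Shmt1 TPM the protein-coding Shmt1-201 held 45.1 ± 4.47% in uninjured, 35.2 ± 2.57% in day 1 and 37.9 ± 5.37% in day 3 libraries. The transcript Shmt1-208, annotated as processed and not as coding, held 14.5 ± 4.36%, 30.1 ± 3.35% and 26.5 ± 6.76% in the same order. The ranges of Shmt1-208 in day 1 (26.3 to 36.6%) and uninjured libraries (5.84 to 17.3%) were apart, and by expected counts its share was 21.3% in day 1 and 9.80% in uninjured libraries. Psat1-205 held 49.3 ± 14.2% of Psat1 TPM in uninjured, 58.2 ± 3.57% in day 1 and 57.4 ± 3.24% in day 3 libraries, ranges that overlapped. These shares are estimates by the authors' software from short reads, and no test was made on them.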

How the data were processed

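RNA from mouse muscle stem cells was sequenced in 22 libraries of 6 groups. Per the labels' protocols and the series' design text, cells were mildly fixed in the animal with paraformaldehyde (quenched with glycine), RNA was extracted with proteinase K and an FFPE kit, and SMART-seq v4 libraries were prepared, which do not mark strand, so reads of antisense genes cannot be told apart. The tools were RSEM 1.3.3, STAR 2.5.2, DESeq2 and Trimmomatic 0.33 on mm10, per the submitters' processing notes, and their settings are not given in the sources used here. The deposited values are RSEM expected counts, TPM and effective lengths in bases of 103732 transcripts, as the authors estimated them per library.

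Expected counts were summed per gene, rounded and matched by Ensembl ID (42462 of 43430 genes matched GENCODE M21, GRCm38). Genes with few counts were left out (filterByExpr, minimum count 10, minimum total 15, leaving 15084). edgeR 4.0.16 quasi-likelihood fits (TMM factors, robust, 6 group means, common dispersion 0.0444) gave log2 fold changes and Benjamini-Hochberg adjusted p over all genes tested, called under 0.05, and SE is the log2 fold change divided by the root of F. State contrasts averaged ZT16 and ZT4. CPM used TMM-scaled totals. Isozyme log2 ratios used TPM with a pseudocount of 0.1 and exact permutation tests, two-sided, over libraries, adjusted over 12. Counting error bounds low genes such as Aldh1l2 and Asns in uninjured cells. Alternatives used DESeq2 1.42.0 and limma 3.58.1 with R 4.3.3, and sums, ratios and permutation tests used Python 3.11.15 with pandas 2.3.3 and scipy 1.17.1. The fitting script was tested on simulated data.

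The members and 16 gene lists were chosen with earlier results of these data known. All 10 members are named, with the 4 genes of smallest p per list and comparison as the pool for examples, the partner in each isozyme pair, Atf4, Ddit3, Trib3, Chac1, Cebpb, Myc and Tyms, and the 5 genes closest in pattern to Phgdh and to Mthfd2. Pax7, Myod1, Cx3cr1, Ly6g, Atf3 and Gldc were named outside this rule, after their values were seen, and 1 gene that the rule names is not reported here.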

Additional observations from a re-analysis of the deposited data

Results flagged for a closer look

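Of 40 groups of 4 injured libraries checked for a library far from the others (10 genes in 4 groups), 2 stood out, and chance gives about 1 in 20. Both were day 1 ZT4 replicate 2, which had the lowest level of its group for Shmt2 (369.1 CPM) and for Mthfd1l (92.01 CPM). The same library had the highest Slc7a11 level at day 1 (40.9 CPM). The groups of 3 uninjured libraries are too small for this check. Whether these values share a cause was not tested.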

How the results depend on the processing

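All 10 genes were called higher than uninjured at day 1 and at day 3 under each alternative run, except Aldh1l2 at day 1 with limma voom (log2 1.31, adjusted p = 0.0566): no filter on low counts, RLE or upper quartile scaling, a replicate block, effective length offsets, only the libraries compared, DESeq2, limma voom, each library left out and the pair of uninjured ZT16 libraries left out. Of 240 member values from alternatives, 239 kept their side and sign at day 1, 240 of 240 at day 3 and 257 of 260 between day 3 and day 1. There the exceptions were Aldh1l2 with length offsets and the near-zero Psph, which had 0.011 with limma voom.

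The number of the 10 genes called for ZT16 against ZT4 in uninjured cells was 2, and it became 1 without uninjured ZT16 replicates 1 and 3, 0 with only the libraries compared and 1 with limma voom, and lay between 1 and 4 with 1 library left out. Over all genes 2665 were called, against 473 without that pair, 577 with only the libraries compared and 1768 to 2896 with 1 library left out. The number whose time difference changed with injury was 0, and it became 1 at day 1 without the filter, without the pair and with DESeq2, and 1 at day 3 with the same settings and with upper quartile scaling, and lay between 0 and 1 with 1 library left out. The gene was Phgdh each time among these settings (0.63 and 1.08 at day 1, 0.62, 1.07, 0.59 and 0.64 at day 3) except Shmt1 with DESeq2 at day 1 (−0.49). Over all genes these changes numbered 1124 at day 1, against 134 without the pair, 514 with only the libraries compared and 738 with limma voom, and 1927 at day 3, against 473 without the pair. Leaving out 1 library gave 648 to 1598 at day 1 and 1311 to 2376 at day 3. Between the times within day 1, 270 genes were called without the filter, and within day 3, 127. The setting without the pair leaves 1 uninjured ZT16 library, with no spread of its own.

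Values near zero changed sign. In uninjured cells these were Shmt2 with upper quartile scaling (−0.0056) and without the pair (−0.065), and Asns with length offsets (−0.047). At day 1 they were Psat1 with RLE scaling (−0.0050), DESeq2 (−0.0048) and limma voom (−0.031), Psph with length offsets (0.010) and Asns with limma voom (−0.034). For the change of the time difference they were Asns with length offsets (0.16 at day 1 and 0.14 at day 3), Slc7a11 with length offsets at day 1 (−0.21) and Shmt2 without the pair at day 1 (0.021). Between day 3 and day 1, leaving out 1 library turned the sign of Psph (−0.082 to 0.016). For ZT16 against ZT4 in uninjured cells, leaving out 1 library turned the sign of Psat1 (−0.45 to 0.060), Shmt2 (−0.14 to 0.32), Mthfd2 (−0.75 to 0.24), Mthfd1l (−0.077 to 0.28) and Asns (−0.053 to 0.75). For ZT16 against ZT4 at day 1, leaving out 1 library turned the sign of Phgdh (−0.0093 to 0.15), Psat1 (−0.092 to 0.077), Psph (−0.14 to 0.052), Shmt1 (−0.0069 to 0.15), Shmt2 (−0.12 to 0.013), Mthfd2 (−0.14 to 0.055), Mthfd1l (−0.018 to 0.067) and Asns (−0.13 to 0.18). For ZT16 against ZT4 at day 3, leaving out 1 library turned the sign of Mthfd2 (−0.044 to 0.14). For the change of the time difference at day 1, leaving out 1 library turned the sign of Psat1 (−0.052 to 0.46), Shmt2 (−0.36 to 0.096), Mthfd2 (−0.28 to 0.71), Mthfd1l (−0.26 to 0.11) and Asns (−0.68 to 0.13). For its change at day 3, leaving out 1 library turned the sign of Psat1 (−0.017 to 0.50), Shmt2 (−0.18 to 0.27), Mthfd2 (−0.20 to 0.79) and Asns (−0.70 to 0.10). The causes were not tested.

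Isozyme ratios kept their sign and call with a pseudocount of 1 and with CPM, except Mthfd1l over Mthfd1 at day 1, which had 0.0094 with CPM and did not pass in either. In ZT4 libraries alone Shmt2 over Shmt1 differed by 0.95 and 1.44 at day 1 and day 3 against uninjured and by 0.49 at day 3 against day 1, Mthfd2 over Mthfd2l by 4.54, 3.89 and −0.64, Aldh1l2 over Aldh1l1 by −0.010, 3.26 and 3.27, and Mthfd1l over Mthfd1 by 0.34 at day 3 against day 1. In ZT16 libraries alone the same differences were 1.27, 1.96 and 0.70 for Shmt2 over Shmt1, 4.58, 3.95 and −0.63 for Mthfd2 over Mthfd2l, 3.58 and 2.81 for Aldh1l2 over Aldh1l1 at day 3 against uninjured and against day 1, and 0.089 and 0.22 for Mthfd1l over Mthfd1 at day 1 against uninjured and at day 3 against day 1. Fewer libraries per test limit the exact p to 0.0571 with 4 against 3, so these do not pass after adjustment. With 1 library left out, Mthfd1l over Mthfd1 ranged between −0.11 and 0.092 at day 1 and between 0.17 and 0.37 at day 3 against uninjured, where it passed without uninjured ZT16 replicate 2 (exact permutation, adjusted p = 0.00414), and Aldh1l2 over Aldh1l1 ranged between −0.054 and 1.05 at day 1. By expected counts in place of TPM, Shmt1-201 held 72.7% of its gene in uninjured, 61.2% in day 1 and 63.9% in day 3 libraries.

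Of 51 same-numbered pairs of libraries, 8 had correlated deviations above 0.1 (−0.193 to 0.325 over 9777 genes). Differently numbered pairs were not compared, so this check cannot decide whether replicate numbers pair the libraries. With the number as a replicate block, the genes called remained 10 at day 1, 10 at day 3, 7 between these days and 2 in uninjured cells between the times, and 0 elsewhere, with Phgdh at −0.54 between the times in uninjured cells (edgeR adjusted p = 0.0414). Depth limits Aldh1l2 (42 counts in uninjured libraries) and the uninjured level of Asns (55 counts), and so the size of their folds.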
